A study of Homo sapiens with 6 samples.

Results

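The nuclear-encoded genes of the respiratory chain were followed from complex I to complex V in HEK293T cells labelled as SMARCA3 knockout and in wild-type HEK293T cells. Members were chosen by a rule on names, with earlier results of these data known. Symbols built on NDUFA, NDUFB, NDUFC, NDUFS or NDUFV, SDHA to SDHD, UQCR, COX4 to COX8 and ATP5 were taken, and 15 further symbols that end as pseudogenes do were left out. The rule found 84 genes among the 56832 symbols of the count table, of which 38 belonged by name to complex I, 4 to complex II, 9 to complex III, 15 to complex IV and 18 to complex V. The name is not the function in every case. NDUFA4 is placed in complex I by its name but its product is a subunit of complex IV, ATP5S and ATP5SL (now DMAC2L and DMAC2) are not subunits of ATP synthase, and COX4I1, CYC1 and NDUFAB1 are subunits whose names the rule does not reach. ATP5 genes appear here under the older symbols of the table: ATP5A1, ATP5B and ATP5C1 are now ATP5F1A, ATP5F1B and ATP5F1C, and ATP5F1, ATP5H and ATP5J are now ATP5PB, ATP5PD and ATP5PF.

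HEK293T cells derive from human embryonic kidney, grow attached, and express adenovirus genes and the large T antigen of SV40, and both groups share this background. Poly(A)-selected RNA was sequenced as stranded paired-end libraries from 3 wild-type and 3 knockout samples grown in the same medium with serum. SMARCA3 is the protein encoded by HLTF, a SNF2-family helicase and ubiquitin ligase. The labels do not say how the knockout was made, whether it is 1 clone, or whether the replicates were separate cultures, so p-values here reflect only how far these samples spread, which may be technical.

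The respiratory chain sits in the inner mitochondrial membrane. Complex I takes electrons from NADH and complex II from succinate, ubiquinone carries them to complex III, cytochrome c carries them to complex IV, and complexes I, III and IV pump protons whose return through complex V drives ATP synthesis. Most subunits are encoded in the nucleus, while a few core subunits of complexes I, III, IV and V are encoded in mitochondrial DNA.

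Total counts ran from 33125811 to 41593655 per library, and the deepest knockout library was below the shallowest wild-type library. Levels are given as CPM, counts per 1000000 counts of the tested genes after TMM scaling, so each value is a share of a library. Differences are given as log2 changes, the log2 fold change of knockout minus wild-type from the edgeR fit. HLTF itself was at 215, 191 and 195 CPM across the wild-type libraries and at 141, 140 and 149 CPM across the knockout libraries (replicates 1 to 3 each). The log2 change was -0.48 (SE 0.05, edgeR adjusted p = 4.65e-05). For this gene alone an exact two-sided permutation test was also run, and it gave p = 0.1, the smallest that 3 against 3 allow. HLTF mRNA was thus lower but still present in every knockout library, and the 40 expressed genes nearest to it had a median log2 fold change of -0.50. Of 12 genes typical of HEK293 cells, 9 were called lower (75%) and 1 higher (8.33%), against 17.7% and 14% of all tested genes, and their summed level was 473 to 499 CPM in wild-type and 326 to 330 CPM in knockout libraries. Among those called were NEFM, the medium neurofilament subunit, which was 34.8 ± 2.85 CPM in wild-type and 0.0501 ± 0.0633 CPM in knockout (SD, n = 3), and PAX2, a nephric transcription factor, at 4.52 ± 0.666 and 10.8 ± 0.0636 CPM. Fibroblast markers summed to 6.33 to 8.47 CPM with DCN at 0, blood markers to 2.46 to 3.75 CPM with CD3E and HBB at 0, and endothelial markers to 0.299 to 0.788 CPM. The part that the shift in the HEK293 genes plays in the results for the respiratory chain was not tested, and in bulk RNA fewer cells with a transcript and less transcript per cell cannot be told apart.

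Of the 84 genes, 79 had enough counts to be tested with edgeR's quasi-likelihood test among 18061 genes. The 5 others were tissue isoforms or copies. COX6A2, the heart and skeletal muscle form of subunit VIa, and COX7B2, an isoform best known from testis, had 0 counts in all 6 libraries, below the 3 counts that a count of 0 allows, which correspond to 0.0723 to 0.0909 CPM by library. COX8C, another isoform of testis, had 2, 1, 0, 0, 1 and 0 counts and ATP5L2, a copy of ATP5L, had 1, 2, 0, 2, 4 and 0 counts in wild-type 1 to 3 and knockout 1 to 3. COX7A1, the heart and muscle form of subunit VIIa, had 6, 6 and 8 counts in wild-type and 5, 8 and 7 counts in knockout. The forms found in most tissues were abundant, with COX6A1 at 71.3, 74.1 and 72.6 CPM, COX7A2 at 163, 161 and 165 CPM and COX8A at 78.3, 92.0 and 89.2 CPM in wild-type. The HEK293T libraries thus held the common isoform of each of these subunits and almost none of the muscle and testis isoforms in both groups.

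Levels per kilobase of transcript spread widely over the 79 tested genes, from 0.249 CPM per kilobase for NDUFA4L2 to 701 for ATP5B, with a median of 87.5 (mean of 6 libraries). The medians were 65.0 for complex I, 60.3 for complex II, 89.3 for complex III, 204 for complex IV and 148 for complex V. The most abundant per kilobase within each complex were NDUFS5 at 370, SDHB at 119, UQCRH at 418, COX7B at 571 and ATP5B at 701. ATP5B, the catalytic beta subunit of ATP synthase, supplied 32.1% of the summed CPM of complex V and 12.7% of that of all members in wild-type. Annotation touches the lowest values: 7 genes share at least 40% of their transcript with another gene on the same strand, namely NDUFV2 (82.9%), NDUFA7 (75.9%), NDUFB8 (71.7%), ATP5O (70.3%), NDUFA11 (67.0%), ATP5J2 (46.2%) and NDUFA13 (44.1%). Their median level was 23.8 CPM per kilobase against 95.4 for the 72 other genes, and NDUFV2, NDUFA7 and NDUFA13 stood at 2.06, 1.54 and 2.09. Reads that fall in 2 genes may not have been counted for these genes, and the part of this in their low levels was not tested. The overlaps are those of GENCODE release 29. For each of the 7, the same-strand gene with the largest overlap has no row under that name in the count table. Whether the annotation used for counting held it is not known. Lengths are those of 1 principal transcript per gene, so the level of a gene with a very long listed transcript, such as NDUFA9 at 1.91, is uncertain.

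**Figure D1:**
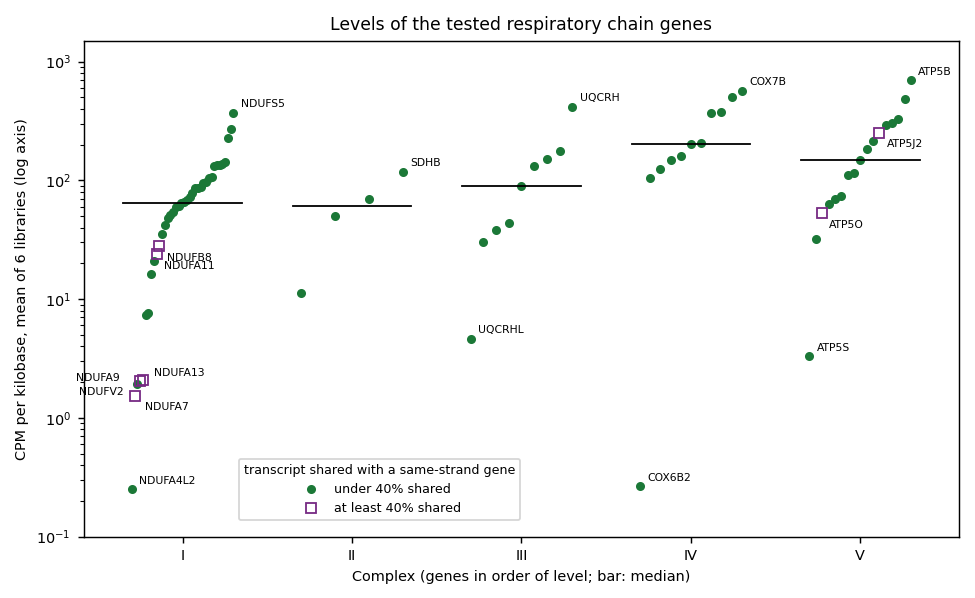
Level of each tested respiratory chain gene in CPM per kilobase of transcript (log axis, mean of 6 libraries), in order of level within each complex; bars are complex medians and open squares are the 7 genes that share at least 40% of their transcript with a same-strand gene. ATP5B stands highest at 701 and the genes under 5 are named, among them 3 of the 7 with shared transcripts.

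Knockout cells had lower levels of 25 respiratory chain genes and higher levels of 3 at an edgeR adjusted p under 0.05, while 51 were not called. The background over all 18061 tested genes was 17.7% called lower and 14% called higher, against 31.6% and 3.80% of the 79 members. Called in either direction were 35.4% of the members against 31.8% of all genes, so the share called was near the background while its split by direction was not. The same held at levels of 10 CPM or more, where 32.9% of 73 members were lower and 4.11% higher, against 19.97% and 16.9% of 9571 genes. The changes were small. The 25 lower calls had a median log2 fold change of -0.22, a change of -13.9%, and the median over all 79 tested members was -0.05 against 0.00 over all genes. Only 2 members were called with a log2 change of at least 0.5 in size, ATP5C1 and NDUFA4L2, where 12.4% of all tested genes were. Many of those genes were at low levels: at 10 CPM or more it was 1 of 73 members and 525 of 9571 genes. In 28 members every knockout library was below every wild-type library and in 7 every knockout library was above, against 24.4% and 21.2% of all tested genes, and these included all 25 lower and all 3 higher calls. The lower calls were 15 without wild-type replicate 3, 14 without knockout replicate 1 and 14 without knockout replicate 2. The higher calls were 8 without wild-type replicate 3. All genes gave 2853 of 18295, 2309 of 18556 and 2402 of 18539 lower calls in these fits, and 2574 higher without wild-type replicate 3. Without that library the split by direction was thus nearer to that of all genes. No test compared the list with other genes, and the members' counts are a description.

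Calls were spread over the complexes. Called lower were 31.6%, 50%, 33.3%, 27.3% and 29.4% of the tested genes of I to V, against 17.7% of all tested genes. Called higher were 2.63%, 0%, 11.1%, 0% and 5.88%, against 14%. Counts for the parts of a complex, given further on, are too small to be read against these shares. In complex I 12 of 38 genes were called lower and 1 higher, in complex II 2 of 4 lower, in complex III 3 of 9 lower and 1 higher, in complex IV 3 of 11 tested lower, and in complex V 5 of 17 tested lower and 1 higher. The median log2 changes were 0.00, -0.14, -0.11, -0.05 and -0.07 for complexes I to V, and with the change of neighbouring genes removed, as described further on, those of I and IV were 0.03 and 0.02. The summed level of all members went from 11011 ± 225 CPM to 10228 ± 260 CPM (SD, n = 3), a change of -7.11%, and the 3 knockout sums, 10203, 9983 and 10500, lay below the 3 wild-type sums, 10845, 10921 and 11267. By complex the sum changed by -5.35%, -7.44%, -2.98%, -6.19% and -9.96% for I to V. The knockout sums did not overlap with the wild-type sums for complexes I, II, IV and V. In complexes I and IV the groups nearly met, with lowest wild-type sums of 2938 and 1664 CPM and highest knockout sums of 2928 and 1659 CPM. For complex III the sums overlapped, at 1352, 1367 and 1429 CPM in wild-type and 1339, 1305 and 1380 CPM in knockout. Without ATP5B the sum of complex V changed by -7.26%.

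**Figure D2:**
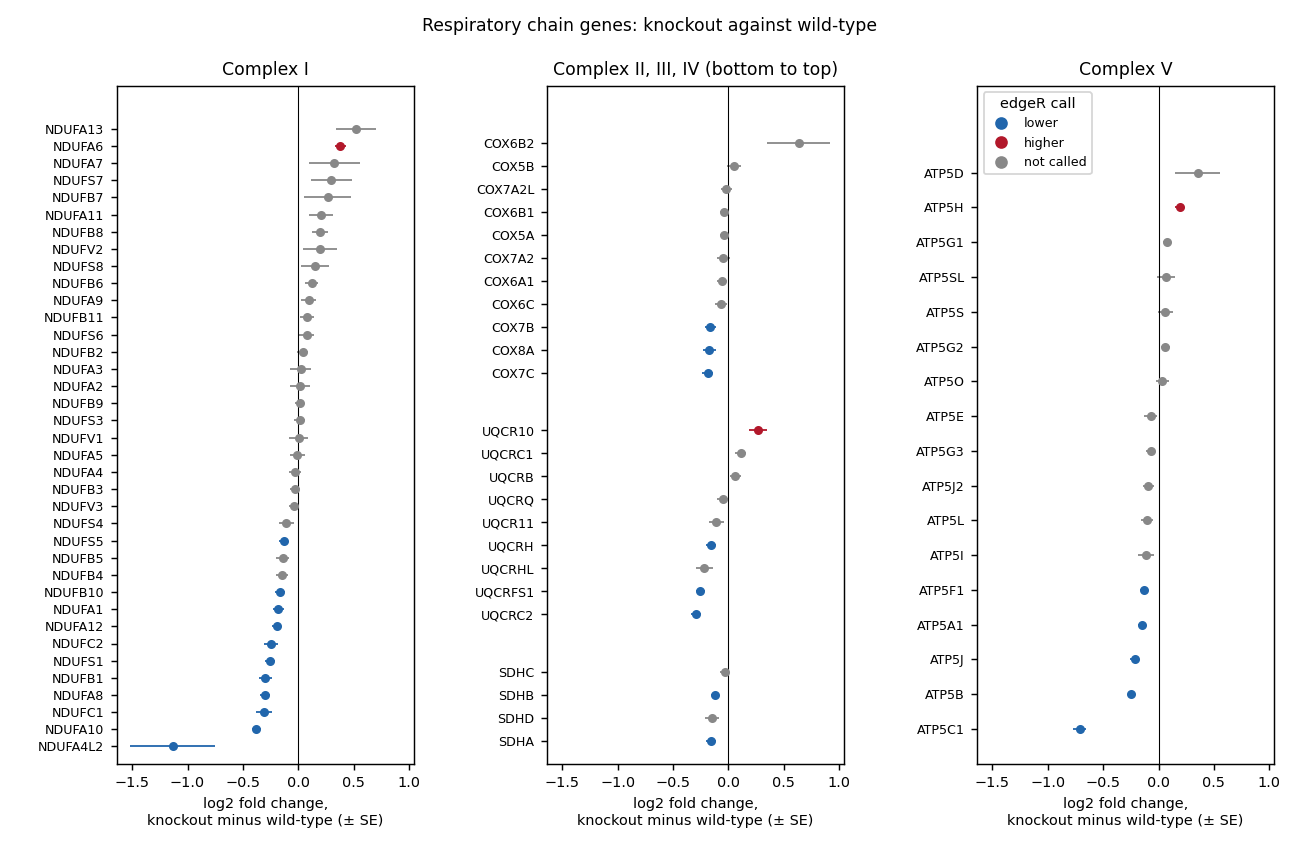
Log2 fold change of knockout against wild-type with its SE for 78 of the 79 tested genes, ordered by value within each complex, coloured by the edgeR call (adjusted p under 0.05, 3 libraries per group). In each complex most called genes lie to the left of 0, and the 3 higher calls are NDUFA6, UQCR10 and ATP5H; the wide bars belong to genes with few counts or GC-rich transcripts.

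Among the core subunits of the complex I matrix arm, which carry electrons from NADH to ubiquinone, 2 of 7 were called lower. NDUFS1, the largest iron-sulfur subunit, measured 215, 197 and 198 CPM in wild-type and 166, 173 and 173 CPM in knockout. Every knockout value was below every wild-type value, and the log2 fold change was -0.25 (SE 0.04, edgeR adjusted p = 0.00142). The 5 core subunits that were not called had estimates that ran from 0.00 for NDUFV1, which carries the flavin, to 0.30 for NDUFS7 (SE 0.19).

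The accessory subunits of the membrane arm were the largest group, and 8 of 20 (40%) were called lower with none higher. The background was 17.7% and 14% of all tested genes. Smaller groups had larger shares called lower, such as 60% of the 5 head genes and 50% of the 4 stalk genes of complex V. Of the 8 membrane arm calls, NDUFA1, NDUFA10, NDUFC1 and NDUFS5 were lost with the change of neighbouring genes removed, as described further on. NDUFA8, NDUFB1, NDUFB10 and NDUFC2 were kept in that fit, and NDUFB6 of the same arm was called higher. NDUFS5 kept its call in 8 and NDUFB10 in 10 of 16 alternative fits. NDUFA10, a subunit with a nucleoside kinase fold, measured 116, 118 and 118 CPM in wild-type and 91.9, 91.8 and 86.9 CPM in knockout. The gap between the groups was many times the spread within them, and the log2 fold change was -0.38 (SE 0.04, adjusted p = 5.9e-05). NDUFA8, a subunit facing the intermembrane space, measured 87.1, 87.5 and 88.6 CPM against 68.9, 71.1 and 73.8 CPM, a log2 change of -0.30 (SE 0.04, adjusted p = 0.000478). NDUFB1, a small single-span subunit, measured 63.6, 61.3 and 63.8 CPM against 48.3, 49.6 and 55.6 CPM, a log2 change of -0.30 (SE 0.06, adjusted p = 0.00309). The groups did not overlap for either gene. NDUFC1 (-0.31), NDUFC2 (-0.24), NDUFA1 (-0.18), NDUFB10 (-0.16) and NDUFS5 (-0.13), all accessory subunits, were also called lower, with adjusted p from 0.00672 to 0.0374. NDUFB4 and NDUFB5 had estimates of -0.15 and -0.14 with groups that did not overlap, but adjusted p of 0.0601 and 0.0803.

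The 9 accessory subunits of the matrix arm were split, with 1 lower and 1 higher. NDUFA12 measured 91.4, 88.5 and 90.8 CPM in wild-type and 78.4, 78.4 and 79.5 CPM in knockout, a log2 change of -0.20 (SE 0.04, adjusted p = 0.00433). NDUFA6, a subunit of the LYR-motif family, measured 63.6, 66.2 and 69.7 CPM in wild-type and 85.0, 83.9 and 90.6 CPM in knockout. It had the largest called rise of all members, with a log2 change of 0.38 (SE 0.05, adjusted p = 0.000262) and no overlap between groups. NDUFA4, which belongs to complex IV, was not called at 182, 184 and 192 CPM against 173, 174 and 200 CPM (log2 fold change -0.03, adjusted p = 0.752). Its low-abundance paralog NDUFA4L2, known for its induction in low oxygen, was called lower on 17, 19 and 12 counts in wild-type and 10, 5 and 4 counts in knockout (log2 fold change -1.13, SE 0.38, adjusted p = 0.0422). That call rests on few counts and was lost in 6 of the 15 alternative fits that could test the gene.

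In complex II, which also serves the citric acid cycle, both catalytic subunits were called lower and neither membrane anchor was. SDHA, the flavoprotein, measured 166, 180 and 185 CPM in wild-type and 162, 156 and 158 CPM in knockout, a log2 change of -0.16 (SE 0.05, adjusted p = 0.0223). The 3 pseudogene rows named for SDHA held counts equal to 13.2% of its own, and they summed to 19.9 to 21.9 CPM in wild-type and 23.7 to 23.9 CPM in knockout. How reads were divided between SDHA and these copies was not tested, so its value is uncertain. SDHB, the iron-sulfur subunit, measured 143, 139 and 145 CPM against 131, 128 and 134 CPM, a log2 change of -0.12 (SE 0.04, adjusted p = 0.0333). The groups came close without overlapping for both. The anchors SDHC and SDHD had estimates of -0.03 and -0.15 with adjusted p of 0.563 and 0.0998, and the difference between anchors and catalytic subunits was not tested. SDHA kept its call in 10 and SDHB in 7 of 16 alternative fits, and both lost it when any 1 library other than wild-type replicate 1 was left out.

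In complex III 1 core subunit, the iron-sulfur subunit and 1 small subunit fell, and another small subunit rose. UQCRC2, a core subunit, measured 270, 257 and 244 CPM in wild-type and 208, 210 and 212 CPM in knockout. The knockout values were nearly equal and all below the lowest wild-type value, and the log2 fold change was -0.29 (SE 0.04, adjusted p = 0.000456). UQCRC1, its partner in the core, was not called at 232, 253 and 272 CPM against 273, 269 and 276 CPM (log2 fold change 0.11, SE 0.05, adjusted p = 0.144). UQCRFS1, the Rieske iron-sulfur protein, measured 114, 113 and 117 CPM in wild-type and 96.9, 92.6 and 99.5 CPM in knockout, a log2 change of -0.25 (SE 0.04, adjusted p = 0.00131). UQCRH, the hinge protein, measured 265, 257 and 277 CPM against 234, 232 and 249 CPM, a log2 change of -0.16 (adjusted p = 0.0181). Its near-identical copy UQCRHL, at 10.9 CPM in wild-type, had an estimate of -0.22 (adjusted p = 0.0536), and reads of the pair may not have been told apart. UQCR10, a small subunit, measured 126, 155 and 162 CPM in wild-type and 187, 171 and 176 CPM in knockout, a log2 change of 0.27 (SE 0.08, adjusted p = 0.0249). Its wild-type replicate 1 stood well below the other two, and the call was made in 11 of 16 alternative fits.

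In complex IV 3 of 9 subunits common to most tissues were called lower and none higher. COX7C measured 359, 343 and 366 CPM in wild-type and 302, 296 and 339 CPM in knockout, a log2 change of -0.19 (SE 0.05, adjusted p = 0.0187). COX8A, with 78.3, 92.0 and 89.2 CPM against 77.2, 75.6 and 77.2 CPM, had a log2 change of -0.17 (SE 0.06, adjusted p = 0.0463). COX7B, the most abundant of the complex per kilobase, measured 270, 258 and 279 CPM against 235, 229 and 256 CPM, a log2 change of -0.16 (SE 0.05, adjusted p = 0.0255). In all 3 the closest values of the groups lay near each other, and none of the 3 was called without wild-type replicate 3, without knockout replicate 1 or without knockout replicate 2. The 6 other common subunits, COX5A, COX5B, COX6A1, COX6B1, COX6C and COX7A2, had estimates from -0.07 to 0.05. COX7A2L, which takes part in joining complex III to complex IV, had an estimate of -0.02 (adjusted p = 0.796). The isoform COX6B2, known from testis, stood at 0.434, 0.257 and 0.341 CPM in wild-type and 0.641, 0.435 and 0.545 CPM in knockout and was not called (adjusted p = 0.118).

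Complex V held the largest fall on abundant transcripts. In its catalytic head 3 of 5 genes were called lower. ATP5C1, the gamma subunit that turns inside the head, measured 297, 269 and 290 CPM in wild-type and 165, 166 and 191 CPM in knockout. The highest knockout value was far below the lowest wild-type value, and the log2 fold change was -0.71 (SE 0.06, adjusted p = 7.68e-06), a change of -39.0%. ATP5B, the catalytic beta subunit, measured 1412, 1391 and 1392 CPM in wild-type and 1177, 1168 and 1194 CPM in knockout, a log2 change of -0.25 (SE 0.03, adjusted p = 0.000315). ATP5A1, the alpha subunit, measured 611, 587 and 593 CPM against 528, 543 and 548 CPM, a log2 change of -0.15 (SE 0.04, adjusted p = 0.0104). The groups did not overlap for any of the 3. With the change of neighbouring genes removed, as described further on, ATP5B kept its call while ATP5C1 and ATP5A1 lost theirs. ATP5A1 was then at -0.10 (adjusted p = 0.0665). ATP5E, the epsilon subunit, was not called (-0.07, adjusted p = 0.40), and neither was ATP5D, the delta subunit (0.35, SE 0.20, adjusted p = 0.219).

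The peripheral stalk, which holds the head still against the rotor, moved in both directions. ATP5J measured 131, 129 and 127 CPM in wild-type and 109, 111 and 112 CPM in knockout, a log2 change of -0.22 (SE 0.04, adjusted p = 0.00159). ATP5F1, the b subunit, fell by 0.13 on the log2 scale (adjusted p = 0.0231). ATP5H, the d subunit, measured 82.3, 84.1 and 83.3 CPM in wild-type and 96.9, 94.2 and 94.4 CPM in knockout, a log2 change of 0.19 (SE 0.04, adjusted p = 0.00431) with no overlap between groups. ATP5O, the remaining subunit of the stalk, was not called (0.03, adjusted p = 0.695). The membrane ring was not called in any of its genes. ATP5G1, ATP5G2 and ATP5G3 encode the same mature c subunit, and their estimates were 0.07, 0.06 and -0.07 (adjusted p = 0.154, 0.313 and 0.234). ATP5G1 stood at 175, 179 and 178 CPM in wild-type and 184, 187 and 188 CPM in knockout, which do not overlap. The 3 other membrane subunits ATP5I, ATP5L and ATP5J2 had estimates from -0.12 to -0.09 and were not called.

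**Figure D3:**
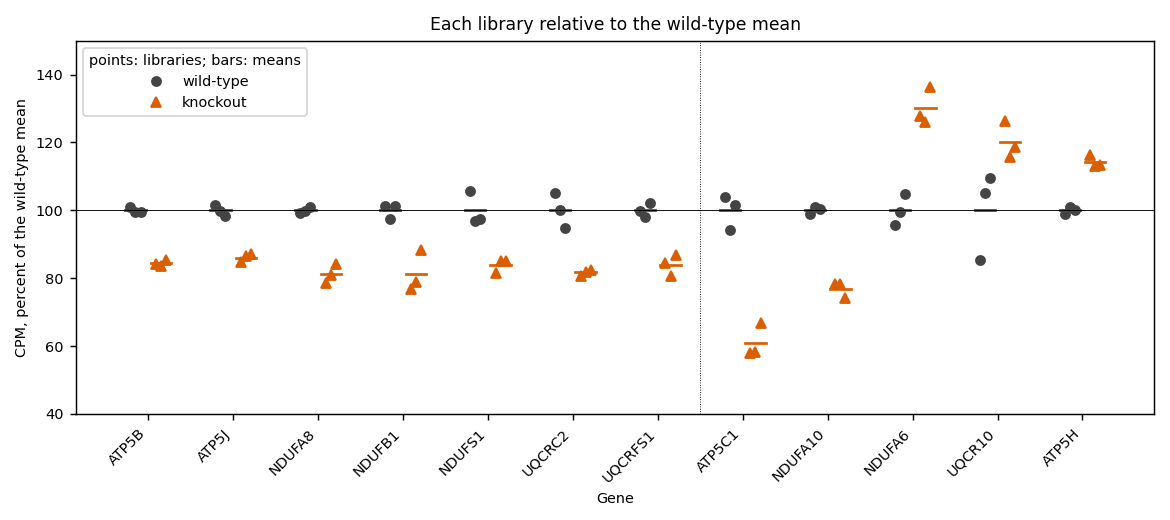
CPM of each library as a percent of the wild-type mean for 12 called genes (circles, 3 wild-type libraries; triangles, 3 knockout libraries; bars, group means; the axis starts at 40). Left of the dotted line are 7 of the 8 genes called lower in every alternative, whose knockout libraries lie below all wild-type libraries; right of it are ATP5C1 and NDUFA10, also lower, and the 3 higher calls.

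The genes' places in the genome were set beside these values, with coordinates from the GENCODE release 29 annotation of hg38. For each member the 40 nearest expressed genes, 20 on each side, were taken without other members. Across the 79 tested members the log2 fold change had r = 0.51 with the median of these neighbours, a description over genes that share the same 6 libraries. ATP5C1, NDUFA10 and the 3 higher calls lay among neighbours whose median had the same sign as their own change. So did NDUFC1, at -0.31, with a neighbour median of -0.12 and 16 called lower and 1 higher. Some other changes of similar size lay among neighbours with medians near 0. NDUFA4L2, at -1.13 on few counts, had a neighbour median of 0.02 with 6 called lower and 6 higher. The medians around NDUFA8, NDUFB1 and UQCRC2 were -0.01, -0.03 and 0.01. ATP5C1, on chromosome 10 from 7788129 to 7807815 (plus strand), had neighbours with a median log2 fold change of -0.61, and 40 of 40 were called lower. NDUFA10, on chromosome 2 from 239892450 to 240025402 (minus strand), had a neighbour median of -0.31, with 19 called lower and 3 higher. NDUFA6, on chromosome 22 from 42085525 to 42090955 (minus strand), had a neighbour median of 0.34, with 32 called higher and 2 lower. UQCR10, also on chromosome 22, from 29767369 to 29770413 (plus strand), had a neighbour median of 0.22, with 22 called higher. ATP5H, on chromosome 17 from 75038863 to 75046985 (minus strand), had a neighbour median of 0.16, with 17 called higher.

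Once the neighbour median was removed from each gene, these 5 were no longer called. The log2 fold change of ATP5C1 became -0.09 (adjusted p = 0.288), against a range of 2.11e-43 to 0.288 over its 16 alternative fits. NDUFA10 became -0.05 (adjusted p = 0.38), NDUFA6 0.06 (0.445), UQCR10 0.06 (0.575) and ATP5H 0.05 (0.393), and each of these p-values was the highest of that gene's alternatives. In this fit 18 members were lower and 3 higher, against 16% and 14.9% of 14459 genes. Of the 25 lower calls 15 were shared, and none of the 3 higher calls was. Besides ATP5C1 and NDUFA10, the lower calls lost were ATP5A1, COX7B, COX7C, NDUFA1, NDUFA12, NDUFC1, NDUFS5 and UQCRH. Their estimates in this fit ran from -0.18 for NDUFC1 (adjusted p = 0.0737) to -0.003 for NDUFA1 (adjusted p = 0.968). Newly lower were COX6B1, UQCR11 and UQCRHL, and newly higher ATP5G2, NDUFB6 and UQCRB, with estimates from 0.13 to 0.22.

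**Figure D4:**
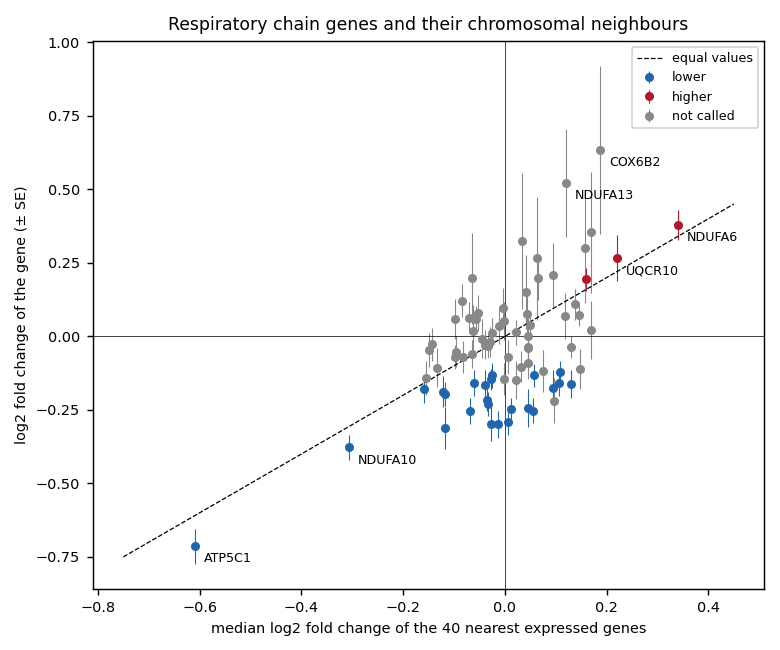
Log2 fold change of each tested member (± SE) against the median log2 fold change of its 40 nearest expressed genes, coloured by the edgeR call; the dashed line marks equal values, and NDUFA4L2 at -1.13 is left out because of its few counts. ATP5C1, NDUFA10, NDUFA6 and UQCR10 lie close to the line, while a group of lower calls lies below it at neighbour medians near 0.

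In all 17 alternatives, removal of the neighbour median included, 8 genes were called lower, among them NDUFA8, NDUFB1 and NDUFS1 of complex I, UQCRC2 and UQCRFS1 of complex III, and ATP5B and ATP5J of complex V. Their neighbour medians lay between -0.07 and 0.05. NDUFA8 lies on chromosome 9 from 122144058 to 122159819 (minus strand), and its log2 fold change was -0.27 with the neighbour median removed (adjusted p = 0.00137, range over its alternatives 7.15e-07 to 0.00566). UQCRC2, on chromosome 16 from 21952660 to 21983660 (plus strand), was at -0.28 (0.000852, range 6.17e-08 to 0.00506). UQCRFS1, on chromosome 19 from 29205321 to 29213541 (minus strand), was at -0.29 (0.000519, range 4.69e-05 to 0.0114). ATP5B, on chromosome 12 from 56638175 to 56646068 (minus strand), was at -0.24 (0.000477, range 1.32e-07 to 0.00413). NDUFS1, NDUFB1 and ATP5J were between -0.25 and -0.16. Exons of ATP5J overlap those of GABPA on the other strand by 413 bases, and GABPA itself was not called (log2 fold change -0.05, adjusted p = 0.633). None of these 8 falls exceeded 0.30 on the log2 scale, and no higher call was kept in all alternatives.

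GC content moved with the spread between libraries. The GC content of a gene was taken over all its annotated transcripts together, not over the principal transcript alone. Over the 73 members at 10 CPM or more, the deviation of a library from its group mean was set against this GC content. It had r = -0.77, 0.72 and 0.56 in wild-type replicates 1 to 3 and r = 0.68, -0.37 and -0.60 in knockout replicates 1 to 3. The 9374 genes with a GC value at that level had the same signs. The largest deviations were in GC-rich genes, with opposite signs in different libraries of a group. NDUFB7, with 65.0% GC, measured 29.3, 42.3 and 55.1 CPM in wild-type and 64.9, 39.5 and 47.8 CPM in knockout. ATP5D, with 67.6% GC, measured 29.3, 46.1 and 53.1 CPM against 69.8, 42.5 and 51.7 CPM. Both had low wild-type replicate 1 and high knockout replicate 1, and neither was called (log2 fold changes 0.26 and 0.35, adjusted p = 0.371 and 0.219). The coefficient of variation among wild-type libraries was 30.5% for NDUFB7 and 28.6% for ATP5D against a median of 4.36% over the 73 members.

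Among members under 55% GC, 22 of 60 were called lower (36.7%) and 3 higher, against 24.4% and 14.5% of all such genes. At 55% GC or more, 3 of 19 were called lower (15.8%) and none higher, against 11.7% and 16.5% of all such genes. When the GC trend of each library was removed, an alternative added after the data were seen, all 25 lower and all 3 higher calls were kept. Newly lower were ATP5I, SDHD, UQCR11 and UQCRHL. Newly higher were ATP5D, ATP5G1, NDUFA13, NDUFB6, NDUFB8 and UQCRB, which gave 29 lower and 9 higher of 79. That fit called 3971 lower and 3397 higher of 14478 genes, against 3205 and 2532 of 18061 in the main fit. It thus called a larger share of all genes, and the kept and gained calls are to be read beside that.

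**Figure D5:**
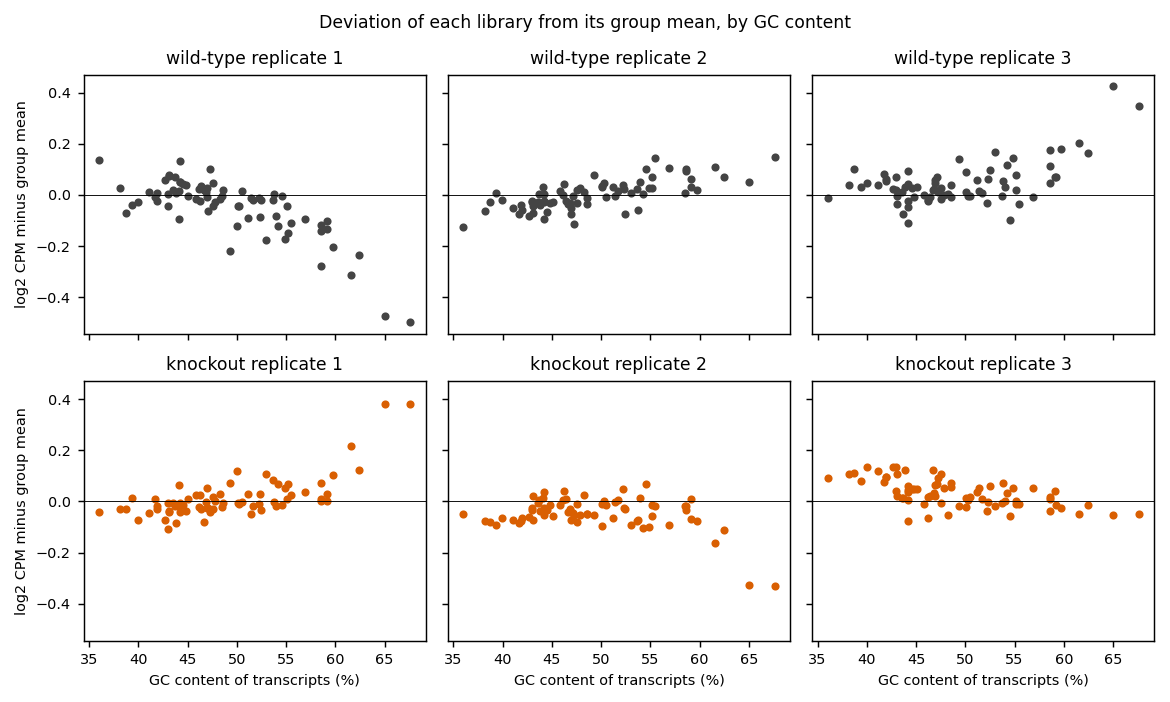
Deviation of each library from its group mean (log2 CPM) against the GC content of all annotated transcripts of a gene for the 73 members at 10 CPM or more, 1 panel per library. GC-rich genes fall below 0 in wild-type replicate 1 and knockout replicate 2 and above 0 in wild-type replicate 3 and knockout replicate 1.

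Promoter sequence was looked at because these genes are classic targets of the nuclear respiratory factors NRF1 and GABP (NRF2) and of YY1. RefSeq start-site windows (GRCh38.p14, from 250 bases before to 50 after the start, the first window listed per gene) were held for 66 of the 84 members. NRF1 was searched as GCGCA, any base and GCGC, GABP as CCGGAAGT and YY1 as AAGATGGC, each on both strands, and none of these motifs can lie inside another. The NRF1 letters were in 16 member windows (24.2%) against 6.28% of all 27305 windows and 8.57% of 15842 windows of protein-coding genes. The GABP letters were in 9 (13.6%) against 4.44% and 6.19%, and the YY1 letters in 11 (16.7%) against 3.03% and 3.91%. Any of the 3 was in 30 windows (45.5%) against 12.5% and 16.9%. By call, 11 of 20 lower members with a window and 15 of 40 members not called held at least 1 of them, as did the 3 higher members. A match is a description of letters and not of binding.

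The stretches from 150 bases before to 30 after the start are shown for 6 called members with a match, 4 lower and 2 higher, so that lower and higher genes can be read side by side. They are written 5′ to 3′ on the strand of the gene, with the matches in capitals.
ATP5C1 (lower), chr10:7788027-7788206, plus strand: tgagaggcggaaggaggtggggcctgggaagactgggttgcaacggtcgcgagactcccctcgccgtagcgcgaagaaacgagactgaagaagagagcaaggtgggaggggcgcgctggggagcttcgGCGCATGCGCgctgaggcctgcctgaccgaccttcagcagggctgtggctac
NDUFA8 (lower), chr9:122159750-122159929, minus strand: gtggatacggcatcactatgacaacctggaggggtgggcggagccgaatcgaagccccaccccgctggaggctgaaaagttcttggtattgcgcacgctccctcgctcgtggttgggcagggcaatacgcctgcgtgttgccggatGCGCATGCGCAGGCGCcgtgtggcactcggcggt
SDHA (lower), chr5:218170-218349, plus strand: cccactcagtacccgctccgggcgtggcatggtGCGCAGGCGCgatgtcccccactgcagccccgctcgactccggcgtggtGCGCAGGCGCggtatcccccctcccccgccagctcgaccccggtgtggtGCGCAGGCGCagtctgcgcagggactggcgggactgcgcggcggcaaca
UQCRFS1 (lower), chr19:29213122-29213301, minus strand: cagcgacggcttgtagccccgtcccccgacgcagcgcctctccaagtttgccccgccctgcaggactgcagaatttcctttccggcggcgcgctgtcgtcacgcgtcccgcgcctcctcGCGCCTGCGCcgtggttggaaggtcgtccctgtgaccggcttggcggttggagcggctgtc
UQCR10 (higher), chr22:29767219-29767398, plus strand: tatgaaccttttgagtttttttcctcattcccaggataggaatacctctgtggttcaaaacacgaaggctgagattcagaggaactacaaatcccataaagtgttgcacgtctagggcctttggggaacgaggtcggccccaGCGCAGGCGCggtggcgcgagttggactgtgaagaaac
ATP5H (higher), chr17:75046940-75047119, minus strand: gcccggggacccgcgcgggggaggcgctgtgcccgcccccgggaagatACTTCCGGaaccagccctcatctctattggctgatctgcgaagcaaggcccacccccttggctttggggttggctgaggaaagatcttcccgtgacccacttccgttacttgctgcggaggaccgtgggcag
The first 5 hold NRF1 letters and the last holds GABP letters. SDHA has its matches 19, 68 and 117 bases before the start in a repeated unit, with another at 166 outside the stretch, and NDUFA8 has a pair that overlap across the start. ATP5C1 has its match 22 and UQCR10 8 bases before the start.

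The factors that these letters are named for were themselves not called: NRF1 was at 35.3 CPM in wild-type and 36.1 in knockout (log2 fold change 0.03, adjusted p = 0.722), GABPA had an estimate of -0.05 and YY1 of -0.03 (adjusted p = 0.629). Of 17 regulators of respiratory chain genes 3 were called lower and 2 higher, together 29.4% against 31.8% of all tested genes, a share near the background. PPARGC1A, the coactivator best known for raising mitochondrial gene expression, was at 4.20 ± 0.451 CPM in wild-type and 1.39 ± 0.0546 CPM in knockout (SD, n = 3; log2 change -1.59, adjusted p = 7.87e-06), while its relative PPRC1 rose, with 219 ± 13.0 CPM in wild-type and 285 ± 10.7 CPM in knockout (log2 change 0.38, adjusted p = 0.000187). The fall of PPARGC1A was on a low level.

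Genes that build or feed the chain were counted in the same fit. Of 55 tested assembly factors, 15 were called lower (27.3%) and 4 higher (7.27%), with a median log2 fold change of -0.08. The background over all tested genes was 17.7% lower and 14% higher, so the 34.5% called in either direction were near the 31.8% of all genes. The counts for each complex are too small to be read against that share and are given as a description. For complex I 5 of 18 were lower and none higher, the largest fall being NDUFAF2 (35.6 ± 1.63 to 26.9 ± 1.95 CPM, log2 fold change -0.40). For complex II 2 of 4 were lower, the largest fall being SDHAF4 (-0.46), and for complex III 0 of 6 were called. For complex IV 5 of 22 were lower and 2 higher, with COX14 at -0.31 and COX20 at 0.37, and for complex V 3 of 5 were lower and 2 higher, with C7orf55 (now FMC1) at -0.48 and ATPAF2 at 0.28. Of 7 tested subunits and regulators outside the name rule, ATPIF1, the inhibitor of ATP synthase, and CYCS, cytochrome c, were called lower (-0.19 and -0.18), while COX4I1, CYC1 and NDUFAB1 had estimates from -0.09 to -0.06 and were not called.

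Of the 13 partner subunits encoded in mitochondrial DNA 4 were called lower and 1 higher, together 38.5% against 31.8% of all tested genes, with a median of -0.04. MT-CYB, cytochrome b of complex III, fell from 3034 ± 214 to 2237 ± 209 CPM (log2 fold change -0.44, adjusted p = 0.00066), and MT-ND1 of complex I rose from 2270 ± 135 to 2792 ± 293 CPM (0.30, adjusted p = 0.00769). Their summed level overlapped between groups, at 33232 to 39015 CPM in wild-type and 34721 to 39511 CPM in knockout. Of 13 coenzyme Q synthesis genes 5 were lower (38.5%) and 1 higher (7.69%), against 17.7% and 14% of all tested genes, with PDSS1 at -0.67 and ADCK3 at 0.21. Of 18 citric acid cycle and pyruvate dehydrogenase genes 9 were lower (50%) and 1 higher (5.56%), against the same background, with OGDH falling from 52.3 ± 1.34 to 35.5 ± 1.89 CPM (-0.56). PDSS1, like ATP5C1, lies on chromosome 10, with a neighbour median of -0.43.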

How the data were processed

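Poly(A) RNA of 3 wild-type and 3 SMARCA3 knockout HEK293T samples was measured. The authors deposited raw whole-number counts per gene symbol, 1 column per library, not normalized. Trim Galore, STAR 2.4, Picard, HTSeq 0.9.1, DESeq2 and hg38 are named per the submitters' processing notes, without role or order. For the annotation release and strand setting of the counts, nothing is given in the sources used here. A gene and one overlapping it on the other strand (34 members) may not have been told apart.

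Counts were tested on the whole table with edgeR 4.0.16 in R 4.3.3: filterByExpr by group (18061 genes kept of 56832), TMM, quasi-likelihood F test, robust = FALSE, no covariate, two-sided, Benjamini-Hochberg over all tested genes, threshold 0.05. Fold changes and SE come from that fit. Chi-square per degree of freedom between replicates was 2.50 to 9.18, above sampling noise, so all 6 were kept. A count of 0 allows up to 3 counts. That limit covers counting error alone, as these reads carry no molecular identifiers.

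All 84 members were matched to the GENCODE release 29 annotation, 17 through RefSeq synonyms. Pseudogene rows named for 19 members held 0.869% of those members' counts, with 50.9% of its own count for NDUFV2, 13.2% for SDHA and 0 to 4.94% for the 17 others. Alternatives were RLE factors, library size only, no filter, 1 CPM in 3 libraries, robust dispersion, a replicate block, removal of the neighbour median (40 genes at 2 CPM or more), limma-voom (limma 3.58.1), DESeq2 1.42.0, each library left out and a threshold of 0.01; removal of the GC trend was chosen after seeing the data. The fit was first tested on simulated data. Genes given with full values were, per complex, the largest called changes, those of 0.5 or more, the highest per kilobase, the lowest tested, isoforms and untested members, with the largest called rise and fall of each other list; further members called or close to the threshold were named after their values were seen, and 2 genes that this covers are not reported here. Members and lists were chosen with earlier results of these data known.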

Additional observations from a re-analysis of the deposited data

How the results depend on the processing

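The 25 lower and 3 higher calls became 12 and 2 at an adjusted p of 0.01, where all genes gave 3477 calls (2056 lower, 1421 higher) instead of 5737. Higher calls were 7 with no filter on low counts and 9 with the GC trend removed. All genes gave 2744 higher calls of 36119 and 3397 of 14478 in these 2 fits. For complex I lower calls were 7 with the neighbour median removed and 7 at 0.01, and higher calls were 2 with RLE factors, with 1 CPM in 3 libraries, with robust dispersion and with limma-voom, and 4 with no filter and with the GC trend removed. For complex II lower calls were 1 with RLE factors, no filter and DESeq2, and 0 at 0.01. For complex III lower calls were 5 with the GC trend removed, and higher calls were 2 with it and 0 with robust dispersion and at 0.01. For complex IV lower calls were 0 at 0.01. For complex V lower calls were 3 with the neighbour median removed and at 0.01, and higher calls were 2 with no filter and 3 with the GC trend removed.

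HLTF went from -0.48 to 0.034 with its neighbour median removed (adjusted p = 0.66, the highest of its 16 alternatives, of which the lowest was 4.38e-19). No called member changed direction in any alternative. The direction of called genes from the other lists was not followed through the alternatives.

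Leaving out 1 library each time gave 14 to 27 lower and 2 to 8 higher members: 14 lower without knockout replicate 1 and without knockout replicate 2, 15 lower and 8 higher without wild-type replicate 3. By complex, lower calls were 8 to 13, 0 to 2, 2 to 3, 0 to 3 and 3 to 6, and higher calls were 1 to 4, 0, 0 to 2, 0 and 1 to 2 for I to V; over all genes 4251 to 6156 were called.

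Replicate numbers did not pair the samples (correlations of deviations -0.23, -0.01 and -0.05). With the number as a replicate block, 18 members were lower and 2 higher, with 0 lower in complex II and 0 higher in complex III.

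The median over members stayed between -0.09 and -0.01 in every alternative, and that over all genes between -0.01 and 0.01. The cause of the calls lost or gained was not tested, other than the smaller number of libraries or genes, and genes under 1 CPM rest on few counts.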
